A study of Mus musculus with 4 samples.

Results

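Natural killer (NK) cells of mouse trabecular bone were taken from a droplet count matrix by their transcripts. A barcode was kept with at least 1000 UMIs (unique molecular identifiers, each standing for 1 captured RNA molecule), a minimum of 200 genes and no more than 15% of UMIs from mitochondrial genes. It counted as an NK cell with at least 2 UMIs over Klrb1c, Ncr1 and Klre1, at most 1 UMI over Cd3e, Cd3d and Cd3g, and at most 3 UMIs over Cd79a and Cd79b. Neutrophil transcripts (S100a8 and S100a9) had to stay under 5% of its UMIs and granule transcripts of early myeloid cells (Mpo, Elane and Prtn3) under 1%. This gave 91 NK cells among 11980 barcodes that passed the quality limits, out of 15014 deposited. They made up 0.760% of the passing barcodes, with an exact Clopper-Pearson interval of 0.612% to 0.932%. The members were chosen by expression, so every level and ratio below describes them and none is a test.

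The study profiled trabecular bone cells from both ends of the tibia, proximal and distal, in 8-week-old mice, released with dispase, collagenase and trypsin over 1 hour and captured with 10X Genomics chemistry. The genotype was Col10a1Cre;Rosa26-Tdtomato;Irx3 +/Δ;Irx5 +/-, which the submitters call a control heterozygous for both Irx genes, and the titles mark it as given no PTH (parathyroid hormone). All 4 sample records carry these labels, and the labels name no wild-type animal. In this model Cre is driven from Col10a1, a gene of hypertrophic chondrocytes, so the tdTomato reporter is aimed at the cartilage lineage and not at blood cells. The matrix pools the 4 records under 1 barcode suffix with 0 duplicated barcodes, so it counts as 1 library without replicates. Nothing says whether the records are separate animals. All intervals are 95% intervals and cover counting error only.

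NK cells are innate lymphocytes that kill infected or transformed cells without a rearranged antigen receptor. They weigh signals from activating receptors, which work through adaptor proteins such as DAP12 (Tyrobp) and DAP10 (Hcst), against inhibitory receptors that bind MHC class I; in the mouse the Ly49 family, encoded by the Klra genes, does much of this. Killing is carried out by granules filled with perforin and granzymes, and the bone marrow is the site where NK cells develop under interleukin-15, losing Cd27 and gaining CD11b (Itgam) as they mature.

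The NK cells had a median of 4053 UMIs (range 1501 to 30531) and 1687 genes, and 550019 UMIs in all. They are set beside 171 T cells (at least 2 Cd3 UMIs, at most 1 UMI of the NK genes and the same other limits; median 4005 UMIs), the nearest lymphocyte type. The wider contrast is with all other 11889 passing barcodes, called the rest (median 4750 UMIs), which are mostly blood cells of other lineages. As a background for free RNA, 3478 B cells (at least 10 Cd79 UMIs; median 4236.5 UMIs) were used. Levels are in CPM, the summed counts of a group scaled to 1e+06 UMIs, on which 1 UMI in the NK cells is 1.82 CPM. CPM is not corrected for gene length, so levels are compared between groups and not between genes.

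The label held for nearly all members. Of the 91 cells, 26 had UMIs of all 3 NK genes, 47 of 2 and 18 of 1. Klrb1c (NK1.1) had 309 CPM in NK cells, 8.85 CPM in T cells and 2.24 CPM in the rest, and was found in 73 NK cells. Ncr1 (NKp46, an activating receptor) had 167 CPM in NK cells in 37 of them, 1 UMI in T cells and 0.557 CPM in the rest. Klre1, a lectin-like receptor, had 484 CPM in 80 NK cells, 16.4 CPM in T cells and 2.78 CPM in the rest. These 3 genes chose the cells. Markers outside the rule were also present: Gzma (granzyme A) had a UMI in 81 cells, Nkg7 in 88, Eomes in 74 and Prf1 in 69. The B cells, whose depth was like that of the NK cells, had these transcripts in 0.719%, 2.59%, 0.460% and 0.863% of cells. Cd3e, Cd4, Cd8b1, Cd5, Themis and Bcl11b had 0 UMIs in the NK cells, and 4 cells had the 1 Cd3 UMI that the rule allows.

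A few barcodes did not look like the others. In 4 cells, with a median of 18316.5 UMIs, markers of plasmacytoid dendritic cells, monocytes or progenitors reached at least 5 UMIs. These 4 cells held all 32 Siglech UMIs and 430 of the 454 Lyz2 UMIs of the group. Of the 4, a pair with 30531 and 23580 UMIs had 2 Klre1 UMIs each and no UMI of Gzma, Nkg7, Ccl5, Eomes or Il2rb, so the label rests on Klre1 alone there. In a further view, 5 NK cells (5.49%) and 5 T cells (2.92%) had at least 20% haemoglobin UMIs, while the median NK cell had 0.168%. Some results below are given with and without such cells.

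Members near the limit were less rich in NK transcripts. The 19 cells with exactly 2 UMIs of the NK genes had 1910 CPM of Gzma in 15 cells and 239 CPM of Eomes. The 29 barcodes with exactly 1 such UMI, which met the other limits but fell just outside the rule, had 496 CPM of Gzma in 9 cells and 68.1 CPM of Eomes. The 72 cells with 3 or more had 3605 CPM of Gzma.

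Promoter sequence is shown for the 3 genes that define the cells and for the pair that encodes the killing machinery. RefSeq windows of 300 bases (250 before to 50 after each annotated start, GRCm38.p6) were found for 24 of 29 genes looked for, namely the 25 genes with the highest NK ratio to the rest, the 3 rule genes and Nkg7. They were searched on both strands for TCACACC, the letters bound by T-box factors such as Eomes and T-bet, for TGTGGTT, bound by RUNX factors, and for AGGAAG, bound by ETS factors. The windows below read 5′ to 3′ on the gene's strand, with matches in capitals. They are Klrb1c at chr6:128788592-128788891 (minus strand, with overlapping ETS matches), Ncr1 at chr7:4337465-4337764 (plus, RUNX), Klre1 at chr6:129577963-129578262 (plus, RUNX), Gzma at chr13:113100932-113101231 (minus, RUNX on the opposite strand) and Prf1 at chr10:61297586-61297885 (plus, ETS).
Klrb1c: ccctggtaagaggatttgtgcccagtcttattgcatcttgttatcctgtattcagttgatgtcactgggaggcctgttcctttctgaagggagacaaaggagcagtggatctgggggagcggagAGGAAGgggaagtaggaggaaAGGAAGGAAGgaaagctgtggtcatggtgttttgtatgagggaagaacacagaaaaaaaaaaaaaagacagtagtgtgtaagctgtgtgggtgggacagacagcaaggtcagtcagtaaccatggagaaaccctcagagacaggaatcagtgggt
Ncr1: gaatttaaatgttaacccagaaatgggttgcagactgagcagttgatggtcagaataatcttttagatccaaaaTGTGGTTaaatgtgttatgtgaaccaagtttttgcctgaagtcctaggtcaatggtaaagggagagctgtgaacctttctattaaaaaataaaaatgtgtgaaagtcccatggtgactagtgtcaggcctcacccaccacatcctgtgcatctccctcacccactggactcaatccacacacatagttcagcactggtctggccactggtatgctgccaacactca
Klre1: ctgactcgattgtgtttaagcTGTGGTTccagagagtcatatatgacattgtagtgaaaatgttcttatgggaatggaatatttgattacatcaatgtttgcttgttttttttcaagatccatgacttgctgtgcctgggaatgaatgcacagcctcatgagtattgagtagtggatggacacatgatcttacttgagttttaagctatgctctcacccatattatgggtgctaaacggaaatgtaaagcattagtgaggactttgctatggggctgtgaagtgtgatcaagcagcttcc
Gzma: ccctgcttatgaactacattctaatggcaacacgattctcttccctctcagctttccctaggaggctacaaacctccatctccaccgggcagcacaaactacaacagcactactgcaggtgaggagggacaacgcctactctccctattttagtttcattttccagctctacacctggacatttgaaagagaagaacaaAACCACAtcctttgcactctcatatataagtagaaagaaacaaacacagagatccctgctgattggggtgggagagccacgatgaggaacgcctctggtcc
Prf1: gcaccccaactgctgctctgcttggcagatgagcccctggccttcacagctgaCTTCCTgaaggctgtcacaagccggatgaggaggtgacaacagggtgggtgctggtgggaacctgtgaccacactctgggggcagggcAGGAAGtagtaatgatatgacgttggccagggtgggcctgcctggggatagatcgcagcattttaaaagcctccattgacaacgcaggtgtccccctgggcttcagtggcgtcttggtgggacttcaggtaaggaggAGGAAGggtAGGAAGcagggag
The 24 genes had 30 windows. The RUNX letters were in 5 of these (16.7%), from 4 genes, against 5.27% of all 32851 RefSeq windows of this length. The T-box letters were in 3 of 30 (10.0%), against 3.98% of all windows, and the ETS letters in 14 of 30 (46.7%), against 35.4%. Windows of the same gene can overlap. A match is a run of letters and says nothing about binding.

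Across all genes, 728 of 5856 (12.4%) were at least 2-fold higher and 610 (10.4%) at least 2-fold lower in NK cells than in the rest, among genes with a mean of at least 20 CPM over both sides and outside the rule. When the library total left out the 50 most abundant genes and haemoglobin, the split was 641 higher and 1087 lower among 7043 genes that then passed, whose median was lower by 0.26 on the log2 scale. Against T cells, 433 of 5683 genes (7.62%) were at least 2-fold higher and 297 (5.23%) at least 2-fold lower in NK cells. The median log2 ratio over these genes was 0.19 against the rest and 0.09 against T cells. The same expression values chose the cells, so nothing is read from these shares about any gene list. A list member with little in the other group could pass the filter only through the NK side, so its call carries no weight. This holds for every list count below, against the rest and against T cells alike. In the same way, a member with little in NK cells could pass only through the other side.

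The highest ratios to the rest belonged to Klra4, Klra9, Gzma, Klri2, Klra8, Klrb1b, Cma1, Eomes, Klra3 and Prf1, which are lectin-like receptors, granule proteases, perforin and an NK transcription factor. Against T cells the leading genes were Klra4, Klri2, Adamts14, Ccl3, Siglech, Cma1, Olfm1, Ccl2, Klrb1b and Gzma. Of these, Siglech rested on 2 of the 4 unusual cells and Ccl2 (24 UMIs) on 1 of them. Adamts14, a secreted metalloprotease of procollagen, had 105 CPM in 41 NK cells and 0 UMIs in T cells, at least 27.8-fold higher against a floor of 3 counts over the T cells. Olfm1, which encodes an olfactomedin-domain protein, had 28 UMIs spread over 25 NK cells and 0 in T cells, at least 13.4-fold higher.

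At the other end stood genes of the neighbouring lineages. Ighg2c and Ighg2b (antibody chains), Ms4a1 (CD20), Rag1 and the basophil protease Mcpt8 had 0 UMIs in NK cells, and Ighg2c was at least 26.6-fold lower than in the rest. Camp, a neutrophil granule peptide, had 164 CPM in 58 NK cells against 15118 CPM in the rest. Of the genes lowest against T cells, Bcl11b, the factor that holds T cell identity, had 0 UMIs in NK cells and 186 CPM in T cells, at least 34.1-fold lower. Cd8b1, a chain of the CD8 co-receptor, was at least 26.2-fold lower, and Themis and Cd5, which tune T cell receptor signals, at least 17.4-fold lower each.

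Ly49 receptor transcripts had a higher summed level in the NK cells than in T cells or the rest. By number most lay outside the NK cells, with 842 UMIs in NK cells and 2260 in the far larger rest. The 11 Klra genes summed to 1531 CPM in NK cells, 168 CPM in T cells and 27.4 CPM in the rest. Of the 11, 6 passed the filter against the rest (median log2 ratio 7.75); with so little in the rest they could pass only through the NK side, so their 2-fold calls carry no weight. Against T cells 5 of 7 were higher and 1 was lower (all genes: 7.62% and 5.23%), with a median of 3.33. Klra4, Klra8 and Klra9, with 0 UMIs, 5.06 CPM and 7.59 CPM in T cells, could likewise pass only through the NK side. Their calls against T cells carry no weight either. Klra4 (Ly49D, an activating receptor on chromosome 6 from 130043731 to 130067271, mm10) had 680 CPM in NK cells (interval 613 to 753), 0 UMIs in T cells and 1.63 CPM in the rest. It was at least 179-fold higher than in T cells by the floor of 3 counts, and the lower end of the exact interval was 145. Klra8 (Ly49H, the activating receptor for a cytomegalovirus protein) had 180 CPM in NK cells, 5.06 CPM in T cells and 0.690 CPM in the rest. The inhibitory receptors Klra7 (Ly49G) and Klra9 (Ly49I) had 300 and 205 CPM in NK cells against 51.8 and 7.59 CPM in T cells.

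Other members differed from this pattern. Klra1 (Ly49A) had 67.3 CPM in NK cells and 34.1 CPM in T cells, a ratio of 1.97 (interval 1.17 to 3.37). Klra5 was the exception in direction, with 1 UMI in NK cells and 37 in T cells. Klra2, Klra6, Klra10 and Klra17 had 1 to 3 UMIs each in NK cells. These genes are close copies of each other, so reads may have been split or lost between them, and the sources used here do not say how multi-mapping reads were counted.

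Single NK cells held several Ly49 transcripts at a time. A UMI of at least 2 Klra genes was found in 63 of 91 cells (69.2%), the median cell had 3 Klra genes and the highest 7, and 13 cells had none. After each cell was thinned to 1000 UMIs, 33 cells (36.3%) still had at least 2. Klra4 alone was detected in 57 cells (62.6%), and in 40.7% after thinning, against 0 of 171 T cells and 0.431% of B cells (0.0863% after thinning). Klra4 and Klra7 were found together in 35 cells, which is 61.4% of the Klra4 cells and 74.5% of the 47 Klra7 cells. The combinations are limited by depth: a transcript missing from a cell is not shown to be absent.

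**Figure D1:**
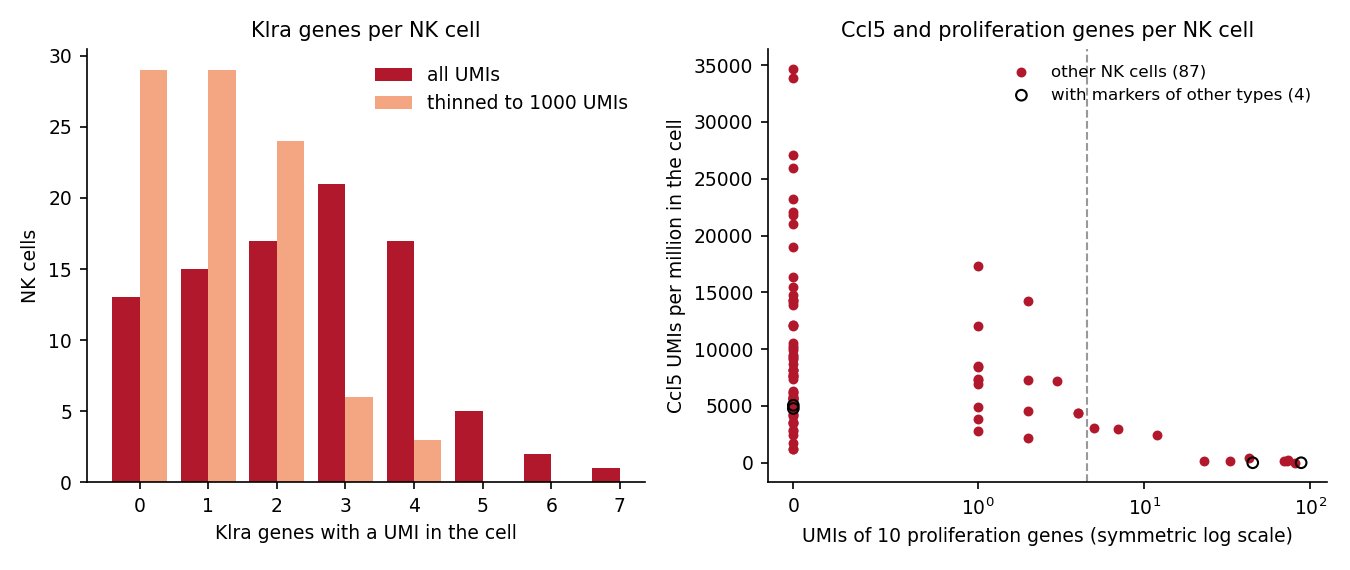
Left, number of NK cells (y axis) by the number of Klra genes with a UMI in the cell (x axis), for all UMIs and after thinning to 1000 UMIs. Right, Ccl5 in CPM of each cell (y axis) against its UMIs of 10 proliferation genes (x axis), with a dashed line at the limit of 5 UMIs and open circles for the 4 cells with markers of other types; the median cell had 3 Klra genes, and cells right of the line tended to have little Ccl5.

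The other lectin-like receptors followed, with a smaller distance from T cells. Of 14 measured members 9 passed the filter, of which 8 were higher than in the rest (all genes: 12.4%), with a median log2 ratio of 6.12. Members with little in the rest, such as Klri2 (0.448 CPM) and Klrb1b (0.436 CPM), could pass only through the NK side. Their 2-fold calls carry no weight. Against T cells 7 of 10 were higher (all genes: 7.62%), with a median of 1.72. Members with little in T cells, such as Klri2 (0 UMIs) and Klrb1b (1 UMI), could again pass only through the NK side. Their calls against T cells carry no weight. Klrd1 (CD94) had 524 CPM in NK cells, 215 CPM in T cells and 9.26 CPM in the rest. It pairs with the NKG2 proteins, and the inhibitory partner Klrc1 (NKG2A) had 151 CPM in NK cells and 114 CPM in T cells (ratio 1.33, interval 0.972 to 1.81). The activating partner Klrc2 (NKG2C) had 147 CPM in NK cells and 49.3 CPM in T cells. Klrc1 and Klrc2 are near copies, so the division between them is uncertain.

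Within cells, 21 of the 29 Klrc1 cells and 46 of the 50 Klrc2 cells also had a Klrd1 UMI. Klrk1 (NKG2D, which recognises stress ligands) had 338 CPM in NK cells against 92.3 CPM in T cells, a ratio of 3.66 (interval 2.78 to 4.87). Klri2, which pairs with Klre1, had 66 UMIs in 31 NK cells and 0 in T cells, at least 31.6-fold higher. Of the Klrb1 group, Klrb1b had 109 CPM in NK cells and 1 UMI in T cells (ratio 86.3, interval 14.9 to 3464), and Klrb1a had 74.5 CPM against 8.85 CPM in T cells. Klrg1, a receptor of mature NK cells, had 5 UMIs in 4 NK cells.

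Surface receptors outside the lectin family went in both directions. Of 17 such genes 9 passed, of which 4 were higher and 4 lower than in the rest (all genes: 12.4% and 10.4%). The median log2 ratio was -0.41. Without the 4 unusual cells 5 of 10 were higher and 2 lower, and the median was 0.62. With the totals taken without the most abundant genes and haemoglobin the median was 2.10, so its sign depends on these choices. Against T cells 2 of 11 were higher and 4 lower (all genes: 7.62% and 5.23%), with a median of -0.58. Cd244 (2B4, a receptor for CD48) had 76.4 CPM in NK cells, 10.1 CPM in T cells and 9.27 CPM in the rest. Fcgr3 (CD16, which drives antibody-dependent killing) had 54.5 CPM in NK cells, 12.6 CPM in T cells and 73.5 CPM in the rest. Cd244 and Fcgr3 were the 2 called higher than in T cells. Both could pass that filter only through the NK side, so these calls carry no weight. Cd160 and Cd226 (DNAM-1) had 36.4 and 29.1 CPM in NK cells against 22.8 and 30.3 CPM in T cells, with ratio intervals that span 1 (0.803 to 3.20 and 0.476 to 1.88).

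Many of these receptors share a stretch of chromosome 6, the NK gene complex. The span from the outermost Klr genes, chr6:128609227-131247362 in the GENCODE M21 annotation of GRCm38, held 24 Klr genes. Of the 19 genes there that passed the filter, 14 (73.7%) were at least 2-fold higher in NK cells than in the rest, and 4 were lower. On the whole of chromosome 6, the span included, this was 55 of 314 genes (17.5%). Klr genes with little in the rest, such as Klra4 (1.63 CPM) and Klri2 (0.448 CPM), could pass only through the NK side. Their 2-fold calls were fixed by the filter and carry no weight. Of the 25 genes with the highest ratio, 9 lay in the span, which was bounded by Klr genes and so is rich in them by construction.

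Most adaptor and signalling genes that passed lay within 2-fold of T cells. Against the rest, 21 of 24 adaptor and proximal signalling genes passed. Of these 12 were higher and 2 lower (all genes: 12.4% and 10.4%), with a median log2 ratio of 2.15. Against T cells 6 of 23 were higher and 3 lower (all genes: 7.62% and 5.23%), with a median of -0.0014. Tyrobp (DAP12) had 1176 CPM in NK cells, 202 CPM in T cells and 749 CPM in the rest. Fcer1g, the adaptor chain of Fc and natural cytotoxicity receptors, had a UMI in all 91 NK cells, with 949 CPM against 186 CPM in T cells. Both are also used by myeloid cells, and a Tyrobp UMI was found in 96.7% of NK cells, 20.5% of T cells and 22.5% of B cells.

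Genes of T cell receptor signalling did not behave alike. Lat, the scaffold below the T cell receptor, had 30.9 CPM in NK cells and 183 CPM in T cells (5.93-fold lower, interval 3.58 to 10.5). Its relative Lat2 had 94.5 CPM in NK cells and 10.1 CPM in T cells. Syk, the kinase that DAP12 recruits, had 98.2 CPM in NK cells against 22.8 CPM in T cells. Without the 4 unusual cells Syk was at 67.9 CPM. Hcst (DAP10) had 311 CPM in NK cells and 429 CPM in T cells, Cd247 (the zeta chain) 81.8 against 106 CPM and Zap70 65.5 against 96.1 CPM, and the last 2 ratios had intervals that span 1.

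Cytotoxic granule genes were divided between those shared with T cells and those far above them. Of 21 genes in this list 17 passed, of which 10 were higher than in the rest and 1 lower (all genes: 12.4% and 10.4%). Members with little in the rest, such as Gzma (10.4 CPM) and Prf1 (2.45 CPM), could pass only through the NK side. Their calls against the rest carry no weight. Against T cells 6 of 18 were higher and 1 lower (all genes: 7.62% and 5.23%). The median log2 ratios were 1.32 against the rest and 0.58 against T cells. Gzma (chromosome 13, 113093825 to 113100981, minus strand) had 1784 UMIs, or 3244 CPM in NK cells (interval 3095 to 3398), 59.4 CPM in T cells and 10.4 CPM in the rest. It was 54.6-fold higher than in T cells (interval 40.9 to 74.6). Per cell the Gzma count had a lowest value of 0, a median of 16 and a highest of 77 UMIs. It was detected in 89.0% of NK cells and 81.3% after thinning, against 3.51% and 2.34% of T cells and 0.719% and 0.345% of B cells.

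Perforin and the inhibitors that guard the killer from its own enzymes followed. Prf1 (perforin, which opens the target membrane) had 365 CPM in NK cells, 27.8 CPM in T cells and 2.45 CPM in the rest. Gzmb (granzyme B) had 224 CPM in NK cells and 39.2 CPM in T cells, and all 39 NK cells with Gzmb also had Gzma. Prf1 was found beside Gzma in 66 of the 69 cells that had it. Serpinb9, which blocks granzyme B, had 715 CPM in NK cells and 207 CPM in T cells, and Serpinb6b, a related inhibitor, 747 against 198 CPM.

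Several granule genes lay within 2-fold of the T cell level. Ctsw (cathepsin W) had 305 CPM in NK cells and 159 CPM in T cells, and Fasl, the death ligand, 135 against 93.6 CPM (ratio 1.44, interval 1.03 to 2.01). Srgn, the proteoglycan core of granules, had 720 CPM in NK cells, 848 CPM in T cells and 979 CPM in the rest. Gzmk had 4 UMIs in NK cells and 11 in T cells. Nkg7, a granule membrane protein, was instead more than 2-fold above T cells. It had 1056 CPM in NK cells, 379 CPM in T cells and 90.3 CPM in the rest.

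**Figure D2:**
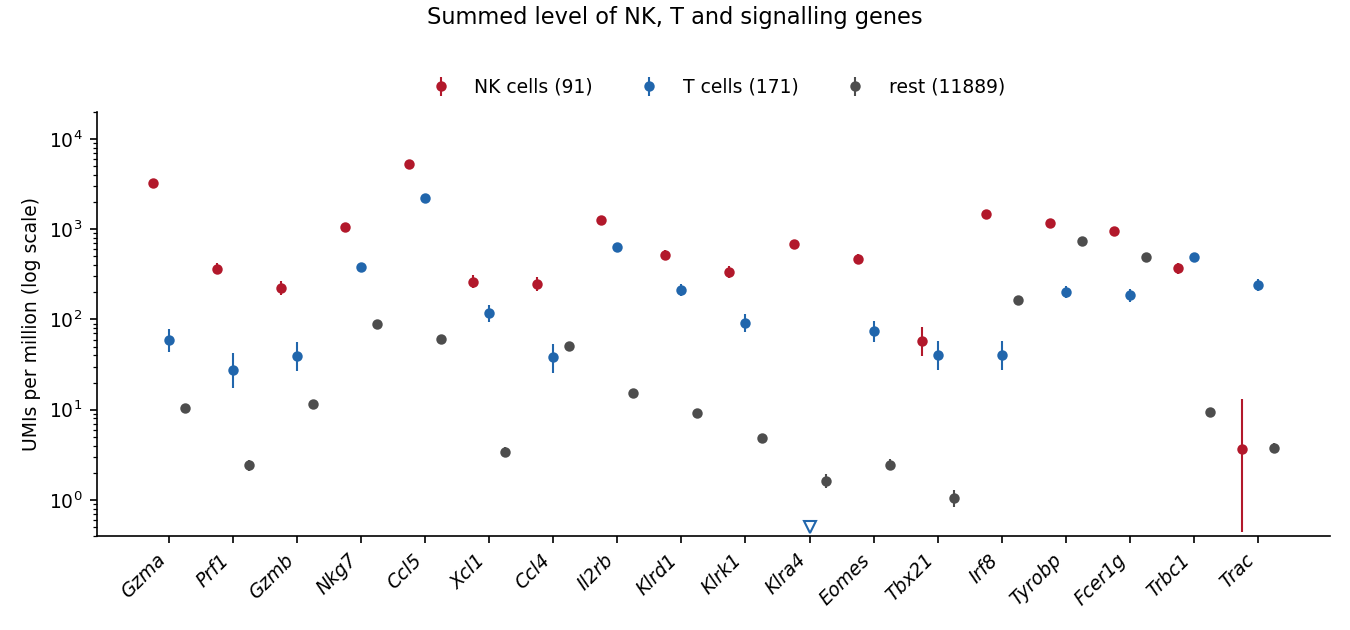
Level in CPM (log axis) of 18 genes in the NK cells, the T cells and the rest; points are summed levels, bars are exact Poisson intervals, and an open triangle marks a gene with 0 UMIs. Gzma stood at 3244 CPM in NK cells against 59.4 CPM in T cells, while Trbc1 lay near the T cell level and Trac was at 2 UMIs in NK cells.

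Several chemokine transcripts were higher in NK cells than in T cells. Of 14 genes of the cytokine and chemokine list 7 passed in each comparison. Of these 6 were higher than in the rest (all genes: 12.4%), with a median log2 ratio of 2.31. Against T cells 6 were higher and 1 lower (all genes: 7.62% and 5.23%), with a median of 1.26. Ccl5 (RANTES) had 5338 CPM in NK cells, 2233 CPM in T cells and 60.7 CPM in the rest, and was detected in 88 NK cells. Xcl1 (lymphotactin, which draws in cross-presenting dendritic cells) had 264 CPM in NK cells against 118 CPM in T cells, a ratio of 2.24 (interval 1.72 to 2.94). Ccl3 and Ccl4, inflammatory chemokines, had 80.0 and 249 CPM in NK cells. Ccl3 had 0 UMIs in T cells, so that it was at least 21.1-fold higher, and Ccl4 had 37.9 CPM there.

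Effector cytokines were sparse. Ifng, the signature cytokine of NK cells, had 22 UMIs in 9 NK cells (40.0 CPM) and 8 UMIs in T cells (10.1 CPM). Of those 9 cells 8 also had Ccl4. Tnf had 2 UMIs in NK cells and 1 in T cells.

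Cytokine receptors differed from T cells in both directions. Against the rest, 15 of 21 genes of the receptor and Jak-Stat list passed. Of these 10 were higher and 1 lower (all genes: 12.4% and 10.4%), with a median log2 ratio of 2.32. Against T cells 2 of 17 were higher and 6 lower (all genes: 7.62% and 5.23%), with a median of 0.22. Il2rb, the chain shared by the interleukin-2 and interleukin-15 receptors, had 1251 CPM in NK cells, 637 CPM in T cells and 15.4 CPM in the rest. It was detected in 87 NK cells. Of the receptors for the interferon-gamma inducing cytokines, 1 chain each was above T cells: Il18rap had 355 against 73.3 CPM and Il12rb2 87.3 against 26.5 CPM. Of their other chains, Il18r1 lay within 2-fold of T cells and Il12rb1 did not pass the filter. Il7r, the interleukin-7 receptor chain on which T cells depend, had 32.7 CPM in NK cells against 501 CPM in T cells and 158 CPM in the rest. Against the rest its log2 ratio was -2.23, and 0.33 when the limit on mitochondrial UMIs was 5%. The common chain Il2rg did not differ detectably from T cells, with 135 against 137 CPM (ratio 0.985, interval 0.723 to 1.34).

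Trafficking receptors differed from T cells in both directions. Of 21 genes 16 passed, of which 10 were higher than in the rest and 1 lower (all genes: 12.4% and 10.4%). Against T cells 6 of 18 were higher and 4 lower (all genes: 7.62% and 5.23%). The median log2 ratios were 1.41 against the rest and 0.56 against T cells. The inflammatory chemokine receptor Ccr2 had 404 CPM in NK cells against 120 CPM in T cells, a ratio of 3.36 (interval 2.63 to 4.32). Ccr7, which leads into lymph nodes, had 45.5 CPM in NK cells and 346 CPM in T cells. S1pr1, an exit receptor, had 87.3 CPM in NK cells and 346 CPM in T cells, and S1pr5, the exit receptor of mature NK cells, had 6 UMIs in NK cells. Cxcr4, which retains cells in the marrow, had 847 CPM in NK cells and 531 CPM in T cells. The integrin Itga2 (CD49b, the DX5 antigen) had 142 CPM in NK cells against 11.4 CPM in T cells and 1.38 CPM in the rest.

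Transcription factors also differed from T cells in both directions. Of 27 genes 23 passed, of which 15 were higher than in the rest and 3 lower (all genes: 12.4% and 10.4%). The median log2 ratio was 1.54. Members with little in the rest, such as Eomes (2.46 CPM), could pass only through the NK side, so their calls there carry no weight. Against T cells 5 were higher and 8 lower (all genes: 7.62% and 5.23%), with a median of -0.28. Without the 4 unusual cells 6 were higher and 5 lower than in T cells. Eomes, a T-box factor of mature NK cells on chromosome 9 (118478212 to 118486132), had 471 CPM in NK cells, 74.6 CPM in T cells and 2.46 CPM in the rest. Its relative Tbx21 (T-bet) had 58.2 CPM in NK cells and 40.5 CPM in T cells, a difference within counting error (ratio 1.44, interval 0.853 to 2.42), and 17 of the 20 Tbx21 cells also had Eomes. Runx3 had 345 CPM in NK cells and 166 CPM in T cells, and Id2, which favours innate lymphoid fate, 618 against 331 CPM.

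Irf8 stood out among the factors. This interferon regulatory factor, best known from dendritic cells, had 1464 CPM in NK cells (interval 1364 to 1568), 40.5 CPM in T cells and 163 CPM in the rest, a ratio of 36.2 to T cells (interval 25.4 to 53.3). It was detected in 84 of 91 NK cells (92.3%, and 69.2% after thinning), and in 66.6% of B cells, which also use it. Without the 4 cells that carry markers of other types it stood at 1555 CPM, in 80 of 87 cells. Of the plasmacytoid dendritic markers, Siglech and Ccr9 had 0 UMIs outside those 4 cells and Ly6d had 1. Tcf4 stayed at 115 CPM there, against 12.6 CPM in T cells and 139 CPM in the rest. The part of these markers in the Irf8 level was not tested. Tcf7 and Lef1, related factors of early T cell development, had 100 and 98.2 CPM in NK cells against 201 and 363 CPM in T cells. Gata3 had 127 CPM in NK cells and 98.6 CPM in T cells (ratio 1.29, interval 0.921 to 1.81).

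**Figure D3:**
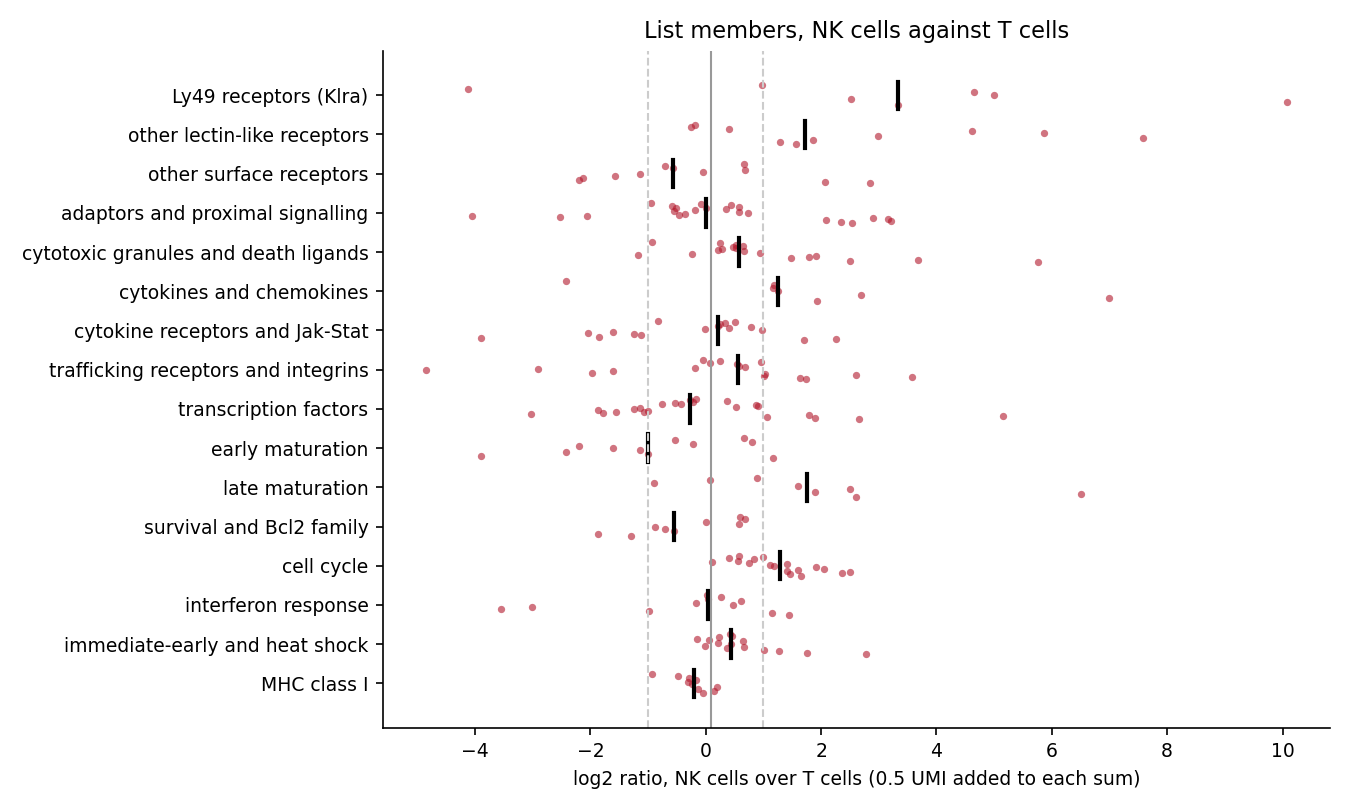
Log2 ratio of NK cells over T cells (x axis) for the members of each gene list that passed the filter; each point is a gene, the black bar the list's median, the grey line the median of all genes (0.09) and the dashed lines a 2-fold difference. Among the lists drawn, which leave out cell type markers, the Ly49 receptors had the highest median (3.33), and the adaptor list was centred near 0.

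T cell receptor transcripts were present in part. Trbc1, a constant region of the beta chain, had 371 CPM in NK cells (interval 322 to 425), 491 CPM in T cells and 9.45 CPM in the rest. It was found in 59 NK cells (64.8%, and 25.3% after thinning), against 53.8% of T cells (32.2% after thinning) and 0.920% of B cells (0.288% after thinning). Trbc2 had 160 CPM in NK cells against 869 CPM in T cells. Trac, the alpha constant region, had 2 UMIs in NK cells and 241 CPM in T cells (66.4-fold lower, interval 18.1 to 552). Trdc, of the delta chain, had 83.6 CPM in NK cells in 31 cells and 154 CPM in T cells. Trbc1 and Trbc2 are near-identical copies, so their division is uncertain, and the gene counts do not tell rearranged from unrearranged transcripts. Without the Cd3 genes of the rules, the T marker list of 11 genes summed to 656 CPM in NK cells and 2758 CPM in T cells.

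Markers of neighbouring innate lymphocytes were mixed. Cxcr6, a marker of type 1 innate lymphoid cells, had 2 UMIs in NK cells and 130 CPM in T cells. The 6 markers of those cells summed to 96.4 CPM in NK cells, 680 CPM in T cells and 231 CPM in the rest. The 5 type 2 innate lymphoid markers summed to 207 CPM in NK cells, 528 CPM in T cells and 23.5 CPM in the rest. Among them Il1rl1 and Il13 had 0 UMIs in NK cells, while Gata3 was above the rest (127 against 4.70 CPM), as was Icos (61.8 against 7.69 CPM, with 355 CPM in T cells). The Cd3 limit removed 47 barcodes that met every other condition. They had 543 CPM of Gzma in 13 barcodes, 180 CPM of Eomes in 24, 294 CPM of Trdc, 173 CPM of Trac, 100 CPM of Cd8a and 1 Cd4 UMI. Ccl5 was found in 45 of the 47. Whether these barcodes are T cells with NK receptors or droplets with both cell types was not tested.

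**Figure D4:**
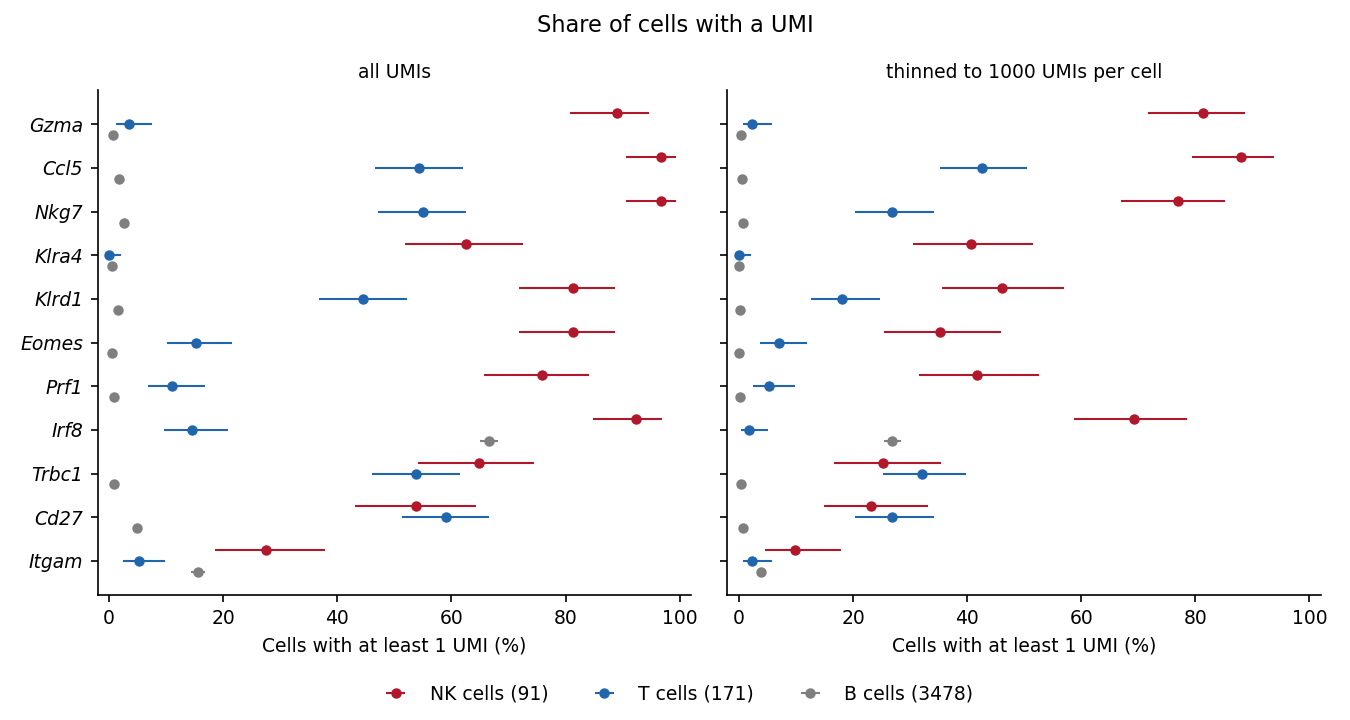
Share of NK cells, T cells and B cells (x axis, percent) with at least 1 UMI of each gene, for all UMIs and after thinning each cell to 1000 UMIs. Gzma was detected in 89.0% of NK cells before and 81.3% after thinning, against 0.719% and 0.345% of B cells.

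Of the genes linked to early NK maturation, 1 of 11 was at least 2-fold higher and 6 lower than in T cells. Of 8 late genes 5 were higher and none lower (all genes: 7.62% and 5.23%). Without the 4 unusual cells, 4 early genes and 1 late gene were lower than in T cells. The comparison with the rest gave 7 of 10 early genes higher and 2 lower (median log2 ratio 4.24). There 4 of 8 late genes were higher and 3 lower (median 0.21, all genes: 12.4% and 10.4%). Without the 4 unusual cells, 1 early gene and 4 late genes were lower than in the rest. Within the NK cells, maturation was read from Cd27 and Itgam, each called present with at least 1 UMI. Cd27 without Itgam was found in 40 cells (44.0%), both in 9 (9.89%), Itgam without Cd27 in 16 (17.6%) and neither in 26 (28.6%). The Itgam-only cells had a median of 3056.5 UMIs and the Cd27-only cells 4674.5 UMIs. Neither of these groups held any of the 4 unusual cells. After thinning, 67.0% of cells had neither gene, so the shares depend on depth.

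The 2 groups differed in maturation genes that had no part in the split. The early list without Cd27 summed to 1420 CPM in Itgam-only cells (interval 1137 to 1752) and 2988 CPM in Cd27-only cells (interval 2778 to 3210). In it, Ctla2a, a cathepsin inhibitor, had 359 CPM in Itgam-only cells and 920 CPM in Cd27-only cells, and Emb (embigin) 457 against 1119 CPM. The late list without Itgam summed to 2155 CPM in Itgam-only cells (interval 1803 to 2555) and 1661 CPM in Cd27-only cells (interval 1506 to 1829). Without Cma1 it was 1779 CPM (interval 1461 to 2146) against 1649 CPM (interval 1494 to 1816), so that those intervals overlap. The difference in the summed levels thus rested largely on Cma1. Per cell, the median of the late list with Cma1 was 2444 CPM in Itgam-only cells and 1323 CPM in Cd27-only cells. That of the early list was 1027 against 2990 CPM. The deepest Itgam-only cell held 15348 of that group's 61264 UMIs. The part of haemoglobin-rich cells in these sums was not tested.

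Among the early and late list genes other than Cd27 and Itgam, Cma1 had the highest ratio of Itgam-only over Cd27-only cells. This gene, which encodes mast cell chymase, lies on chromosome 14 from 55941451 to 55944675 and had 31 UMIs in 16 NK cells and 0 in T cells. It had 375 CPM in 9 of 16 Itgam-only cells and 12.0 CPM in 3 of 40 Cd27-only cells, a ratio of 31.4 (interval 9.49 to 163) from 3 UMIs on the Cd27 side. Gzma had 7247 CPM in Itgam-only cells and 3175 CPM in Cd27-only cells, and Prf1 783 against 343 CPM. Spn (CD43) had 245 CPM in Itgam-only cells and 112 CPM in Cd27-only cells. Gzmb did not follow, with 212 CPM in Itgam-only cells and 283 CPM in Cd27-only cells. Nor did Lgals3 (147 against 239 CPM), Ly6c2 (114 against 167 CPM) or Prdm1 (1 against 8 UMIs). Lgals1 (898 against 745 CPM) and Zeb2 (81.6 against 59.8 CPM) were higher in Itgam-only cells, but all these ratio intervals spanned 1. Apart from Itgam, only Cma1 and Spn of the late list had intervals wholly above 1. Klrg1 had 2 UMIs in each group, and Cx3cr1, a marker of late NK cells, had 0 in both.

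**Figure D5:**
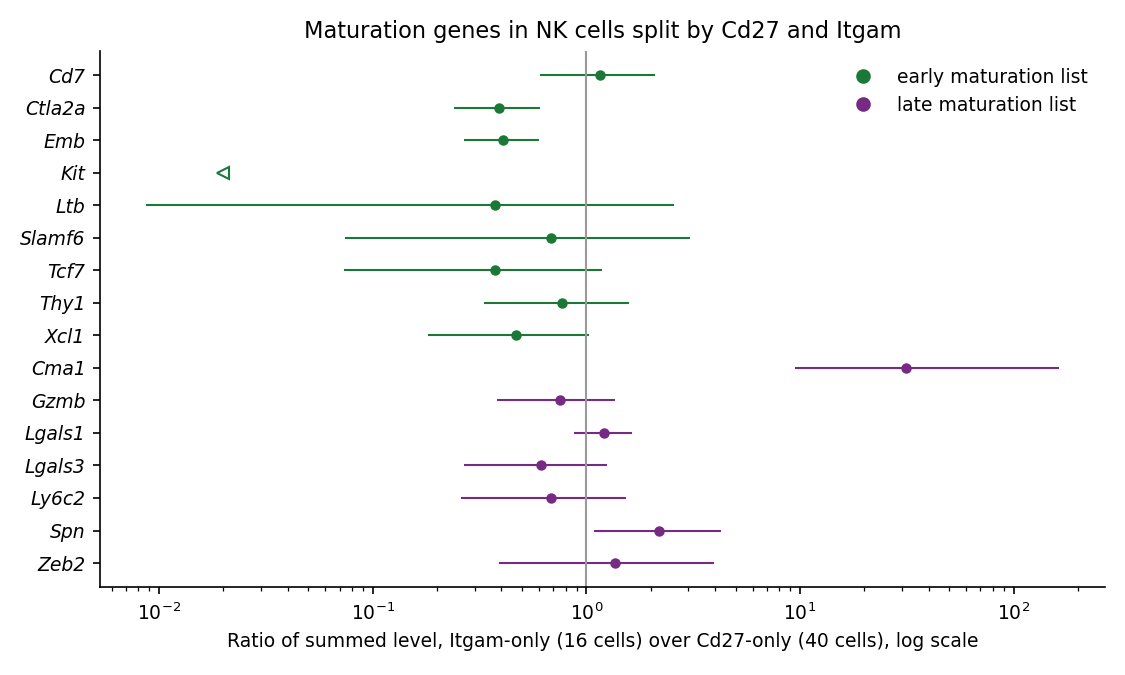
Ratio of Itgam-only cells (16) over Cd27-only cells (40) on a log axis for genes of the early (green) and late (purple) maturation lists, with exact conditional binomial intervals; a triangle marks a gene with 0 UMIs in Itgam-only cells. Cma1 lay at 31.4, and Ctla2a and Emb lay below 1.

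A minority of NK cells was in cycle by transcript. At least 5 UMIs over 10 proliferation genes were found in 12 of 91 NK cells (13.2%) and 7 of 171 T cells (4.09%). Without the 4 unusual cells it was 10 of 87 NK cells (11.5%, interval 5.65% to 20.1%). Few cells lay near the limit, with 3 NK cells at 3 or 4 UMIs and 1 at 5 or 6. At least 1 UMI remained after thinning in 19.8% of NK cells, 12.3% of T cells and 35.4% of B cells, which hold dividing precursors. The 10 genes summed to 1055 CPM in NK cells, 324 CPM in T cells and 1908 CPM in the rest. Of the longer cell cycle list, 11 of 18 members were higher than in T cells (all genes: 7.62%). None of 20 was higher than in the rest, where 7 were lower in NK cells (all genes: 12.4% higher and 10.4% lower).

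The cycling NK cells carried less of the effector transcripts for their depth. Ccl5 stood at 455 CPM in the 12 cells and 8524 CPM in the 62 NK cells without a proliferation UMI, and at 631 against 8888 CPM without the 4 unusual cells. Gzma stood at 822 CPM in the 12 cells and 4652 CPM in the 62, and at 1140 against 5052 CPM without the unusual cells. The cycling cells were also deeper, with a median of 13808.5 UMIs against 3618.5 UMIs, and the part of depth in this contrast was not tested. All 10 cycling cells outside the unusual ones had UMIs of Il2rb, Klrk1 and Serpinb6b.

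Several general programmes were also compared with T cells, where 7.62% of all genes were higher and 5.23% lower. None of 10 MHC class I genes was 2-fold apart from T cells (median log2 ratio -0.20), while 6 of 10 were higher than in the rest (all genes: 12.4%). H2-K1 had 2240 CPM in NK cells, 2321 CPM in T cells and 641 CPM in the rest. Of 9 survival genes, none was higher and 2 were lower than in T cells. Bcl2, which protects lymphocytes from death, had 333 CPM in NK cells, 487 CPM in T cells and 24.7 CPM in the rest. Of the interferon response genes, 2 of 11 were higher and 3 lower than in T cells (median 0.04), and 1 and 2 without the 4 unusual cells. Of 15 immediate-early and heat-shock genes, which tissue digestion can induce, 4 were higher than in T cells, and 1 of 15 without the 4 unusual cells. Egr1 had 280 CPM in NK cells and 82.2 CPM in T cells, but 80.6 CPM without those 4 cells.

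Car2, carbonic anhydrase 2, 1 of the 6 erythroid markers looked at, was also found in many NK cells. It had 584 CPM in 58 NK cells, 59.4 CPM in T cells and 592 CPM in the rest, where erythroid cells and osteoclasts use it. Leaving out NK and T cells with at least 20% haemoglobin UMIs left 385 CPM in 53 of 86 NK cells and 25.5 CPM in T cells. Car2 was detected in 34.1% of NK cells after thinning, against 3.51% of T cells and 7.02% of B cells. It was named after its values had been seen.

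Transgene elements were counted in a separate deposited table. WPRE, an RNA element of many transgene cassettes, had 31 UMIs in 26 NK cells (56.4 CPM), 72.1 CPM in T cells and 50.6 CPM in the rest, a ratio to the rest of 1.11 (interval 0.756 to 1.58). TdTomato had 2 UMIs in NK cells, 2 in T cells and 0.859 CPM in the rest, a ratio to the rest of 4.23 with an interval that spans 1 (0.503 to 15.9). EGFP had 0 UMIs in NK cells, which allows up to 5.45 CPM by 3 counts, 0 in T cells and 10.4 CPM in the rest, where 376 of its 856 UMIs sat in 1 barcode. Cre had 0 UMIs in all of these groups.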

How the data were processed

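Cells of the tibia of 1 group of mice were profiled as 4 sample records pooled in 1 matrix. The authors deposited raw UMI counts per gene and barcode, made with Cell Ranger 3.1.0 on mm10 per the submitters' processing notes, which also name Seurat 3. A separate deposited table gives counts of added sequences, and the sources used here do not say how its reads were aligned. No column was left unmapped. Quality limits were a minimum of 1000 UMIs and 200 genes and a maximum of 15% mitochondrial UMIs, and groups were cut by marker UMIs as described above. The NK cells, the gene lists and the tests were chosen with earlier results of these data known.

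UMIs were summed over the cells of a group and scaled to CPM. Levels have exact Poisson intervals, ratios exact conditional binomial intervals and shares exact Clopper-Pearson intervals, all at 95% and reflecting the counting alone. Where a group had 0 UMIs the bound uses a floor of 3 counts over the group, and log2 ratios add 0.5 counts a side. A fold given as at least some value is the quotient at that floor. It lies above the lower end of the exact 95% interval. A gene counts as higher or lower at 2-fold, given a mean of 20 CPM over both sides, and genes of the rules are left out. List counts are over members that passed this filter, which a member can pass through the side where it is high. With 1 library there is no test between samples and no p-value. The genes named are the cell markers, members of the lists, and the 10 highest and 10 lowest ratios of each comparison. Free RNA was judged from B cells, and shares were recomputed after thinning each cell to 1000 UMIs (seed 0). Scrublet, run in scanpy 1.11.5, marked 720 of 12676 barcodes (5.68%) as doublets, 5 of them NK cells. These were kept, and removing them was an alternative. The 2-fold calls and the ratio intervals were tested on simulated summed counts with Poisson error. That simulation held no single cells, so it did not cover the marker rules, the thinning or the spread between cells. Scripts ran in Python 3.11.15 with pandas 2.3.3, numpy 2.4.6, matplotlib 3.10.9 and scipy 1.17.1.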

Additional observations from a re-analysis of the deposited data

How the results depend on the processing

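A limit of 5% mitochondrial UMIs left 33 NK cells (0.606% of cells), with 1529 genes higher than in the rest and, against T cells, 1037 higher and 613 lower. Under it the log2 ratios to the rest of Il7r and Zeb2 turned to 0.33 and 0.035, where they had been -2.23 and -1.17, and the cause was not tested. Asking for at least 1 or at least 3 NK UMIs gave shares of 1.00% and 0.601%. A filter at 10 CPM left 980 genes lower than in the rest and, against T cells, 725 higher and 554 lower. With no filter there were 2177 higher and 9416 lower than in the rest, among 19187 genes. Against T cells there were 2294 higher and 2441 lower among 12638 genes. Without a filter, any gene with 0 UMIs in NK cells and at least 1 in the other group counts as lower. Without the 50 most abundant genes and haemoglobin in the totals, 1087 were lower than in the rest. With 2 UMIs to mark a cell, 4.40% had both Cd27 and Itgam and 49.5% neither. Thinning to 1000 UMIs gave 23.1% Cd27 only, 0% both, 9.89% Itgam only and 67.0% neither. It lowered the shares of NK cells with Cd27 to 23.1%, Klra4 to 40.7%, Trbc1 to 25.3% and Mki67 to 7.69%, and thinning to 2000 UMIs those with Cd27 to 34.1% and Trbc1 to 50%. In all, 89 summary values stayed within their limits and 27 moved, while 2421 values of named genes stayed, 297 moved and 2 changed direction. The alternatives without the cells carrying other markers, without cells at 20% haemoglobin and without the deepest NK cell were chosen after seeing the data. No paired analysis was possible because the records are pooled in 1 library, and no replicate could be left out. The depth, 550019 UMIs over 91 cells, limits what can be said of genes with few UMIs.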
